A study of Mus musculus with 16 samples.

Results

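The endothelin system of these cells was described here through 4 genes: Edn1, which encodes endothelin 1, Ednra and Ednrb, which encode its type A and type B receptors, and Ece1, which encodes endothelin-converting enzyme 1. They were chosen by gene symbol in the array annotation with the signals of all 8 groups already known, so the values given for them are a description with their errors and without p-values, and nothing is drawn from how many of them pass a threshold. Each gene had 1 transcript cluster, the probe set that stands for a gene, and these were 4 of 22206 annotated transcript clusters. Primary skin fibroblasts were grown from the tails of mice with mucopolysaccharidosis type I (MPS I), a lysosomal disease with defective breakdown of glycosaminoglycans, and their RNA was hybridised to Clariom S mouse arrays after 24 h with genistein (G), kaempferol (K) or both. G is an isoflavone and K is a flavonol. The 16 arrays made 8 groups of 2, called G60 and G120 (60 and 120 µM G), K60 and K120 (60 and 120 µM K), GK60 and GK120 (1:1 mixtures of 60 and 120 µM in total, hence 30 and 60 µM of each), 0.05% DMSO and 0.1% DMSO. G and K were set against 0.05% DMSO and the mixtures against 0.1% DMSO, following the study's methods. The comparisons of G and K therefore share 2 control arrays, as do those of the mixtures. Direct differences between a mixture and a single flavonoid were taken between their signals, without subtracting these unlike controls. All 8 groups were MPS I cells of mice aged 6 to 8 weeks, no group of healthy cells was analysed, and neither the labels nor the methods name the allele or the strain. The labels call the 2 arrays of a group biological replicates without saying whether they came from separate mice or cultures. The standard errors and intervals below measure the spread between such arrays, which may be technical, pooled over all 8 groups in 1 fit. A gene therefore has the same standard error in each comparison of 2 groups, whatever the spread of the arrays compared.

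Endothelin 1 is a small peptide that is cut from a longer precursor first by furin-type proteases and then by endothelin-converting enzymes at the cell membrane. It acts on 2 receptors that couple to G proteins: the type A receptor drives contraction, growth and matrix synthesis in smooth muscle cells and fibroblasts, while the type B receptor of endothelial cells releases nitric oxide and takes endothelin 1 out of the circulation. In skin, endothelins are known for the melanocyte lineage, which depends on the type B receptor, and for scarring and fibrosis, in which dermal fibroblasts both make and answer endothelin 1.

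In the RefSeq annotation of GRCm38.p6, Edn1 lies at chr13:42301476-42307990 on the plus strand, Ednra at chr8:77663029-77724452 and Ednrb at chr14:103814615-103844508 on the minus strand, and Ece1 at chr4:137862237-137965229 on the plus strand. All 4 genes had promoter windows in the RefSeq table. The 250 bases upstream of the annotated start are shown for the ligand and the receptors, whose signals varied most, and for Rgs2, a pathway gene whose signal followed that of Ednrb closely over the 8 groups. The window of Ednrb precedes a start that lies inside the annotated span of the gene. Sequences run 5′ to 3′ on the strand of the gene, and capitals mark matches on either strand to the CCAAT box (CCAAT), the GC box (GGGCGG) and the E-box (CANNTG).
Edn1, chr13:42301226-42301475, plus strand: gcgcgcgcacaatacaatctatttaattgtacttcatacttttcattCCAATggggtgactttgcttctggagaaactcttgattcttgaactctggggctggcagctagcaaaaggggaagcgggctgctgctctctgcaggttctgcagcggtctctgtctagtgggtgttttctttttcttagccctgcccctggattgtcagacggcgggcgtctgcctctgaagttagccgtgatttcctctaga
Ednra, chr8:77724453-77724702, minus strand: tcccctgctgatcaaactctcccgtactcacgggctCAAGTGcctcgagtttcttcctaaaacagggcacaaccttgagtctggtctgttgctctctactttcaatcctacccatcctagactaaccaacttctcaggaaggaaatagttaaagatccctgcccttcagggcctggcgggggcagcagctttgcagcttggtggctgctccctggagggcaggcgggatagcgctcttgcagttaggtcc
Ednrb, chr14:103843702-103843951, minus strand: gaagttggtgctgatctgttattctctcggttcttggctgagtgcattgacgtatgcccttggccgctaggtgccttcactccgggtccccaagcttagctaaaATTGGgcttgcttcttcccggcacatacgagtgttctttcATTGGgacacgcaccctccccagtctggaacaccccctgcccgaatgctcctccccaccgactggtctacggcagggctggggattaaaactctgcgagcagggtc
Rgs2, chr1:144004150-144004399, minus strand: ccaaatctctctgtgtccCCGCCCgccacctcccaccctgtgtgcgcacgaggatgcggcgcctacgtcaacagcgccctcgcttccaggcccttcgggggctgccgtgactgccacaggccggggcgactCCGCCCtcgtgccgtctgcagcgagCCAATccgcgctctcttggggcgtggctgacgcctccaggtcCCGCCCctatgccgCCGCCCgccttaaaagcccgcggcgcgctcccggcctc
The window of Ednrb held 2 CCAAT boxes, at 146 to 142 and at 106 to 102 bases before the start, that of Edn1 held 1 at 203 to 199 bases, and that of Rgs2 held 1 at 94 to 90 bases and 4 GC boxes. The only match in the window of Ednra was an E-box at 214 to 209 bases. Of 32851 promoter windows of the same length, 33.8% held a CCAAT box, 32.7% a GC box and 66.2% an E-box. The other motifs searched, the TATA box (TATAAA, in 12.4% of all windows), the AP-1 element (TGANTCA, 6.75%), the GATA element (AGATAA, 9.99%) and the core of the hypoxia element (ACGTG, 16.6%), had no match in the 4 printed windows. ACGTG and CANNTG can overlap, and no matches overlapped in these windows. The share of G and C was 50.4% for Edn1, 54.8% for Ednra, 56.8% for Ednrb and 72.4% for Rgs2, against a median of 52.4% over all windows, and the 4 windows of Ece1 lay between 53.2% and 69.2%.

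The transcript clusters of an array had a median log2 signal of 6.54 to 6.63, and the 5222 negative control probe sets, which match no mouse transcript, had a median of 6.47 to 6.83. Over all transcript clusters, r between the 2 arrays of each group was 0.995 to 0.997. Of 8 fibroblast markers, 7 lay above the negative control median on all 16 arrays. All 6 keratinocyte markers, all 6 Schwann cell markers and 6 of 7 endothelial markers, with Pecam1, Cdh5 and Vwf among them, lay at or below it on all 16 arrays, and Kdr was above it on 1 array. Of 7 melanocyte markers, Dct, Tyr, Tyrp1, Pmel and Sox10 were at or below the negative control median on all 16 arrays, whereas Mitf and Mlana were above it on all 16. In such bulk samples, fewer cells of a type and less RNA per cell cannot be told apart.

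The signal of the ligand gene Edn1 was lower with K and with both mixtures, and close to the control with G. Its log2 signal was 9.05 and 9.12 with 0.05% DMSO and 8.68 and 8.97 with 0.1% DMSO. It was 8.90 and 9.05 in G60, 8.88 and 8.72 in G120, 8.28 and 8.22 in K60, 8.10 and 8.53 in K120, 8.40 and 7.79 in GK60, and 8.04 and 8.07 in GK120. The 8 arrays with K in the medium thus all lay below the 4 control arrays and the 4 G arrays, and the arrays of G60 overlapped those of both controls.

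Edn1 differed from its control by -0.83 in K60 and -0.77 in K120 on the log2 scale, and by -0.74 in GK60 and -0.77 in GK120, each with a standard error (SE) of 0.20 and n = 2 against 2. These were 0.561-fold (95% confidence interval 0.419 to 0.753), 0.585-fold (0.437 to 0.785), 0.600-fold (0.448 to 0.804) and 0.585-fold (0.436 to 0.784) of the control. In G60 and G120 the differences were -0.11 (-0.53 to 0.31) and -0.28 (-0.70 to 0.14), both with 0 inside the interval. The step from 60 to 120 µM was -0.17 for G, 0.06 for K and -0.04 for the mixture, and each interval included 0. Against G at the same concentration, Edn1 differed by -0.72 in K60 (interval -1.15 to -0.30) and by -0.49 in K120 (-0.91 to -0.07). The mixtures differed from G by -0.88 and -0.75, and their differences from K, -0.16 (-0.58 to 0.26) and -0.26 (-0.68 to 0.17), had intervals that included 0. In descending order the groups were 0.05% DMSO, G60, 0.1% DMSO, G120, K120, K60, GK60 and GK120, and the only neighbours whose arrays did not overlap were G120 and K120. The choice of control bears on Edn1, because 0.1% DMSO differed from 0.05% DMSO by -0.26 (SE 0.20). The differences of the mixtures from G and K given above were not corrected for this gap. With 0.1% DMSO as the control, K60 and K120 differed by -0.58 and -0.52 and G60 by 0.15.

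The type A receptor gene Ednra had a lower signal in all 6 conditions, and the decrease was larger at 120 µM than at 60 µM for each treatment. Its log2 signal was 10.33 and 10.59 with 0.05% DMSO and 10.14 and 10.40 with 0.1% DMSO. It was 9.67 and 9.97 in G60, 8.90 and 9.20 in G120, 9.88 and 10.06 in K60, 9.40 and 9.50 in K120, 9.86 and 9.90 in GK60, and 9.69 and 9.29 in GK120. All 12 treated arrays lay below all 4 control arrays.

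The lowest values of Ednra were those of G120, at -1.41 (SE 0.18) from 0.05% DMSO, or 0.376-fold (0.288 to 0.492). K120 followed with -1.01 (0.496-fold, 0.379 to 0.648), GK120 with -0.78 (0.582-fold, 0.445 to 0.761), G60 with -0.64, K60 with -0.49 and GK60 with -0.39 (-0.78 to -0.01), all with the same SE. The step from 60 to 120 µM was -0.77 (-1.16 to -0.38) for G, -0.52 (-0.91 to -0.13) for K and -0.39 (-0.77 to 0.0012) for the mixture. At 60 µM, K60 lay 0.15 above G60, with an interval of -0.24 to 0.54 and overlapping arrays. At 120 µM, K120 lay 0.40 (0.01 to 0.78) and GK120 0.44 (0.05 to 0.83) above G120, without overlap, and GK120 and K120 overlapped with a difference of 0.04 (-0.34 to 0.43). In the order of the 8 groups, the controls stood above K60 and K120 stood above G120 without overlap, and all other neighbours overlapped.

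The type B receptor gene Ednrb showed the widest range of the 4 genes, 4.74 between the highest and the lowest group mean on the log2 scale, and its signal was lower with G and higher with K. Its log2 signal was 9.15 and 9.04 with 0.05% DMSO and 9.17 and 9.19 with 0.1% DMSO. It was 6.83 and 6.77 in G60 and 6.05 and 5.50 in G120, against 10.27 and 10.76 in K60 and 9.43 and 9.79 in K120. The mixtures gave 9.04 and 9.86 in GK60 and 8.90 and 8.55 in GK120. All 4 G arrays were below and all 4 K arrays above the 4 controls, the arrays of GK60 lay on either side of the controls, and those of GK120 lay just below them.

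Both G120 arrays of Ednrb were below the median of the negative controls (-0.68 and -1.20 from it), so that only a bound can be given for this group: with the signal set to that median where it was lower, Ednrb was at least 5.19-fold lower in G120 than in 0.05% DMSO. The measured difference was -3.32. The G60 arrays lay only 0.10 and 0.04 above the negative control median, and their difference from the control was -2.30 (SE 0.26), or 4.92-fold lower (0.203-fold, 0.138 to 0.299). In K60 the signal was higher by 1.42 (0.86 to 1.97), which is 2.67-fold (1.82 to 3.93), and in K120 by 0.51 (-0.04 to 1.07), which is 1.43-fold. The step from 60 to 120 µM was -0.90 (-1.46 to -0.35) for K and -0.72 (-1.28 to -0.16) for the mixture, and none is given for G, because both groups were near or below the negative controls. The type B receptor signal was thus highest at the lower K concentration.

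At matched concentrations the differences between compounds were wider for Ednrb than for the other 3 genes: K60 was measured 13.1-fold above G60 (8.93 to 19.3), and K120 at least 7.42-fold above G120. The mixtures lay between the single flavonoids. GK60 was measured 6.26-fold above G60 (4.26 to 9.20) and differed from K60 by -1.07 on the log2 scale (-1.62 to -0.51), and GK120 was at least 4.01-fold above G120 and differed from K120 by -0.89 (-1.44 to -0.33). Since G60 was near the level of the negative controls, its folds, that against 0.05% DMSO included, are no exact ratios of RNA and can understate the difference. Against 0.1% DMSO, GK60 differed by 0.26 (-0.29 to 0.82) and GK120 by -0.46 (-1.01 to 0.10), both with 0 inside the interval. GK120 holds 60 µM of each flavonoid, and its difference from the control exceeded the sum of those of G60 and K60 by 0.42 (-0.69 to 1.54), an interval that includes 0 and is wide because 5 groups of 2 enter it. The same limit of G60 applies to this sum, so the value is not exact and can be understated. The order of groups was K60, K120, GK60, 0.1% DMSO, 0.05% DMSO, GK120, G60 and G120, and only GK60 overlapped its neighbours.

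**Figure D1:**
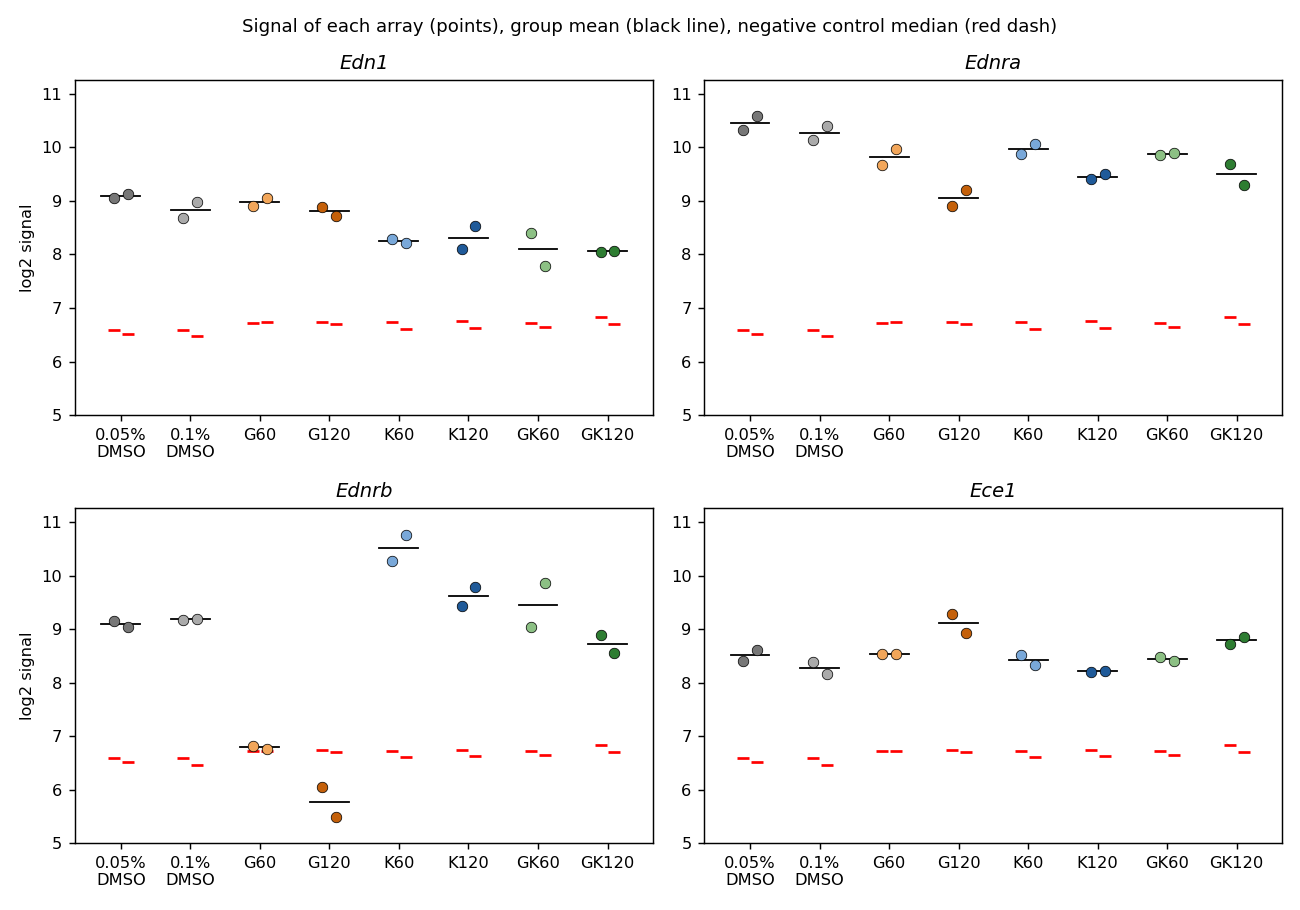
Log2 signal (vertical axis) of Edn1, Ednra, Ednrb and Ece1 in each of the 16 arrays (points) by group (horizontal axis), with the mean of the 2 arrays (black line) and the negative control median of each array (red dash). The G arrays of Ednrb sit close to or below the red dashes, between 5.50 and 6.83, while its K arrays sit between 9.43 and 10.76, and all 12 treated arrays of Ednra sit below its 4 controls.

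The 2 melanocyte markers above background were compared with Ednrb group by group, since this receptor is known from that lineage. Mitf, a transcription factor of melanocytes that fibroblasts can also express, had a mean log2 signal of 10.3 with 0.05% DMSO, 10.5 in G60 and 10.1 in G120, and of 11.3 in K60, 11.5 in K120, 11.5 in GK60 and 11.6 in GK120. Mlana, a melanosome protein gene, had 8.78 with 0.05% DMSO and 8.77 in G60, where Ednrb was near background, and 7.62 in G120. It had 8.95 in K60, 8.34 in K120, 9.17 in GK60 and 8.28 in GK120. With 0.1% DMSO, the control of the mixtures, Mitf had 10.1 and Mlana 8.52. The log2 of the summed signals of the 7 melanocyte markers ranged from 10.5 in G120 to 11.8 in GK120. Mitf, at 10.1 and 11.6 in these groups, was the brightest of the 7, so this sum mainly follows Mitf. The part of these markers in the Ednrb signal was not tested. The log2 of the summed signals of 4 immune markers, of which Ptprc, Adgre1 and Cd3e were at or below the negative control median on all 16 arrays, ranged from 8.91 with 0.05% DMSO to 11.5 in G120. The gene above background among them was Cd68, a lysosomal membrane protein gene of macrophages and other cells. Its mean was 8.42 with 0.05% DMSO, 10.3 in G60 and 11.5 in G120, the groups with the lowest Ednrb. It was 9.12 in K60, where Ednrb was highest, and 8.72 in K120. In the mixtures it was 9.66 in GK60 and 9.44 in GK120, against 8.89 with 0.1% DMSO. The part of Cd68 in the Ednrb signal was not tested.

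The gene of the converting enzyme, Ece1, which makes the final cut that yields active endothelin 1, had the narrowest range, 0.90 between group means, and was higher in G120 and GK120. Its log2 signal was 8.41 and 8.62 with 0.05% DMSO and 8.39 and 8.17 with 0.1% DMSO. It was 8.53 in both arrays of G60, 9.29 and 8.94 in G120, 8.52 and 8.33 in K60, 8.21 and 8.23 in K120, 8.47 and 8.40 in GK60, and 8.73 and 8.86 in GK120. The 4 arrays of G120 and GK120 lay above all 4 controls, and the other 8 treated arrays lay within their range.

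Ece1 was higher by 0.60 (SE 0.15) in G120, or 1.52-fold (1.21 to 1.91), and by 0.52 in GK120, or 1.43-fold (1.14 to 1.80). In K120 it differed by -0.29 (-0.62 to 0.04), and in the groups at 60 µM by 0.02 in G60, -0.09 in K60 and 0.16 in GK60, all with 0 inside the interval. At 120 µM K minus G was -0.90 (-1.23 to -0.57), while at 60 µM the difference was -0.11 (-0.44 to 0.22). GK120 lay 0.58 above K120 (0.25 to 0.91) and differed from G120 by -0.32 (-0.65 to 0.01). Neither value was corrected for the gap between the controls, which was -0.23 (-0.56 to 0.10) for 0.1% DMSO minus 0.05% DMSO. The departure of GK120 from the sum of G60 and K60 was 0.59 (-0.07 to 1.25), while that of Edn1 was 0.17 (-0.68 to 1.01) and that of Ednra 0.35 (-0.42 to 1.13). In the order of groups, G120 stood above GK120 and GK120 above G60 without overlap, and each of the remaining 6 groups overlapped its neighbour.

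**Figure D2:**
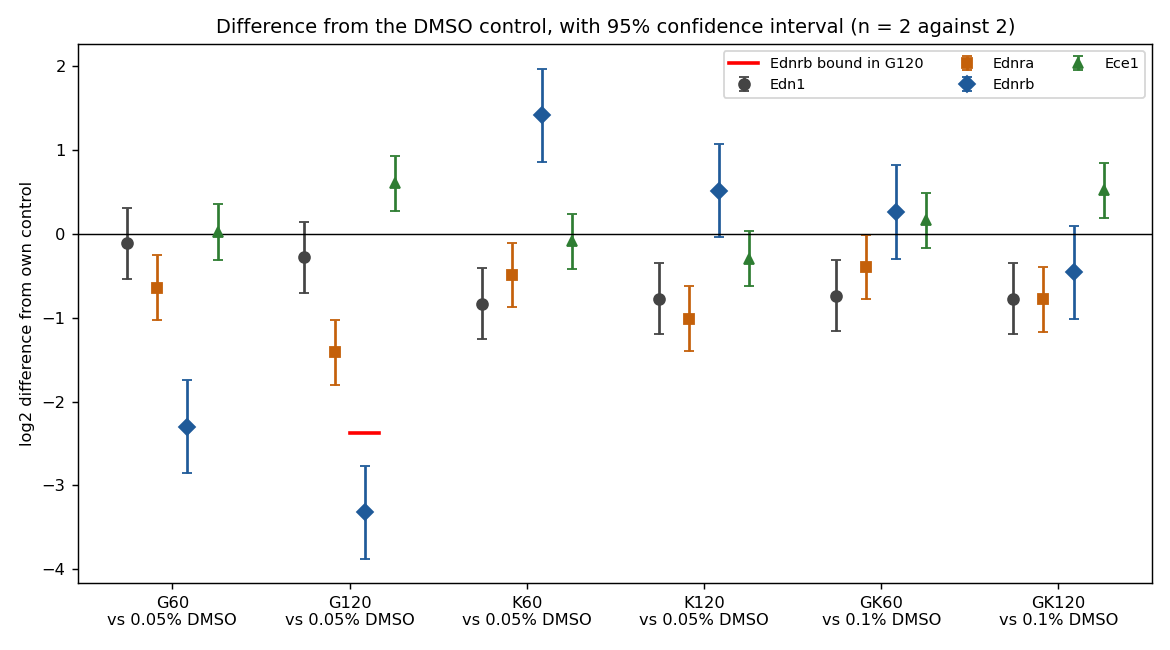
Log2 difference from the DMSO control (vertical axis, 0 is no difference) of the 4 genes in the 6 conditions (horizontal axis), with 95% confidence intervals from the limma fit and n = 2 against 2. Ednrb runs from -3.32 in G120, where the red line marks its bound of -2.38, to 1.42 in K60, while Ednra is below 0 in each condition, from -1.41 to -0.39.

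The balance of the receptor genes was followed within each array as the change of Ednra minus the change of Ednrb from the control mean, which compares changes and not levels of different probes. In G60 this was 1.48 and 1.84, with a mean of 1.66 ± 0.25 (SD, n = 2), so that the measured ratio of type A to type B signal was 3.15-fold that of the control although both were lower, with Ednrb near the level of the negative controls in these arrays, so that the ratio is not an exact fold. In K60 it was -1.75 and -2.07 (-1.91 ± 0.23), and in K120 -1.40 and -1.65 (-1.53 ± 0.18), or 0.266-fold and 0.347-fold of the control ratio. G and K thus left Ednra on the same side of the control and the ratio on opposite sides. In the mixtures it was -0.27 and -1.05 in GK60 (-0.66 ± 0.55), where the arrays differed widely, and -0.29 and -0.35 in GK120 (-0.32 ± 0.04), where Ednra and Ednrb were lower by similar amounts. In G120 it was 1.48 and 2.34, with Ednrb below the negative control median in both arrays. The 4 control arrays lay between -0.19 and 0.19, but each was set against the mean of its own pair, so their centre was fixed beforehand. The SDs leave out the error of the control means.

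**Figure D3:**
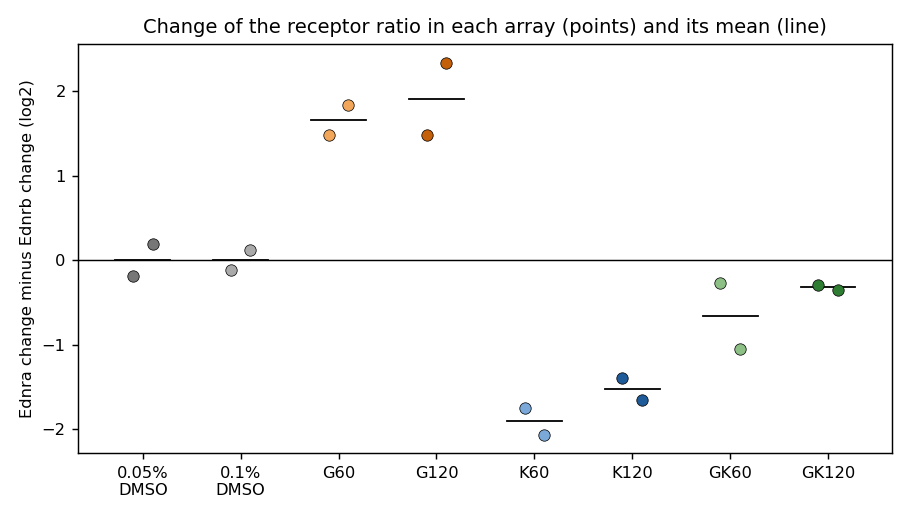
Change of Ednra minus change of Ednrb on the log2 scale (vertical axis), each against the mean of its own DMSO control, in each of the 16 arrays (points) by group (horizontal axis) with the mean (line). The G arrays lie from 1.48 to 2.34, the K arrays from -2.07 to -1.40, and the mixtures between -1.05 and -0.27.

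By the same limma fit, 2 of the 4 members were called lower in G60 (Ednra, Ednrb) at an adjusted p under 0.05, where 4.49% of all transcript clusters were called lower and 3.84% higher. In G120 2 were called lower and 1 higher (Ece1), against 7.8% and 7.94% of all, in K60 1 lower (Edn1) and 1 higher (Ednrb), against 4.4% and 5.72%, and in K120 2 lower (Edn1, Ednra) and none higher, against 8% and 8.98%. In GK60 1 was called lower (Edn1), against 8.57% lower and 9.24% higher of all, and in GK120 2 lower (Edn1, Ednra) and 1 higher (Ece1), against 9.48% and 10.1%. K60 against G60 and K120 against G120 each had 1 member called higher and 1 lower, where 4.78% and 5.21% of all transcript clusters were called higher and 3.39% and 4.57% lower. Nothing is read from these counts, because the same signals were used to choose the members. They also rest on single arrays: of the 3 calls in GK120, none remained without 0.1% DMSO replicate 2 or without GK120 replicate 2 and 1 without GK120 replicate 1, and the call in GK60 was lost without 0.1% DMSO replicate 2 or GK60 replicate 2. The 2 calls in G60 and in K60 became 1 without any one of the arrays compared, and those in K120 without either array of 0.05% DMSO or without K120 replicate 1.

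Further genes were taken as 5 lists with 90 genes in all, of which 23 were at or below the negative control median in all groups. The totals include a list of 21 genes of other vasoactive peptide systems, which lie outside the endothelin system and served for comparison. In G60 1 of the 90 rose and 12 fell at an adjusted p under 0.05 in limma, in G120 8 rose and 19 fell, in K60 3 rose and 17 fell, in K120 5 rose and 22 fell, in GK60 4 rose and 20 fell, and in GK120 3 rose and 22 fell. The shares of all transcript clusters given above are the background for these counts. It is not a like background, since 10918 of all 22206 clusters had a mean signal above the negative controls, against 62 of the 90 genes. The median difference of the 90 genes was between -0.26 (GK120) and 0.01 (G120), and that of all transcript clusters between -0.04 and 0.01. With 1 of the 4 arrays of a comparison left out, the total of calls fell from 13 to between 5 and 8 in G60, from 20 to between 9 and 11 in K60 and from 24 to between 13 and 18 in GK60. The up to 4 genes named per list for their wide differences had 63 calls in the 6 conditions. Of these, 39 were kept with each of the 4 arrays left out in turn.

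Among 12 other ligands and peptidases, 7 were at or below the negative control median in all groups, the ligand genes Edn2 and Edn3 among them. Mme, which encodes neprilysin, a membrane peptidase that degrades endothelin 1 and other peptides, fell in all 6 conditions. Its log2 difference was -0.67 in G60 (limma adjusted p = 0.01), -2.50 in G120 (adjusted p = 2e-07), -1.21 in K60, -1.65 in K120, -1.35 in GK60 and -1.57 in GK120, with an SE of 0.14. The call in G60 was kept without only 1 of the 4 arrays. Ece2, a second converting enzyme, fell in GK120 by 0.94 (limma adjusted p = 0.037), a call lost without any one of the 4 arrays. Cma1, a mast cell chymase that can also cut the precursor, was called lower in GK60 (-0.60) with both groups at or below the negative controls. From 1 to 2 of the 12 genes fell in each condition and none rose.

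Of 28 receptor signalling genes, 3 fell and 1 rose in G60, 8 fell and 3 rose in G120, 4 fell and 3 rose in K60, 7 fell and 4 rose in K120, 7 fell and 3 rose in GK60, and 8 fell and 2 rose in GK120. These counts include Plcb1, which rose in GK60 and GK120, and Arrb1, which fell in G120, with both groups at or below the negative controls. Rgs2, a regulator that shortens signalling by the Gq protein on which both endothelin receptors act, was lower with G and higher with K, as Ednrb was. It was at least 2.36-fold lower in G60 (limma adjusted p = 0.00031) and at least 2.37-fold lower in G120 (adjusted p = 8.3e-07), and 3.08-fold higher in K60 (adjusted p = 0.00074), 1.83-fold higher in K120 (adjusted p = 0.026) and 1.72-fold higher in GK60 (adjusted p = 0.044). In GK120 the 2 genes lay on opposite sides of the control, Rgs2 at 0.47 (adjusted p = 0.21 in limma) and Ednrb at -0.46. The Rgs2 calls in K120 and GK60 were lost without single arrays, in K120 without any one of the 4. K60 exceeded G60 by at least 7.28-fold and K120 exceeded G120 by at least 4.34-fold (limma adjusted p = 2.2e-06 and 2.6e-07).

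Some signalling genes fell under both flavonoids. Itpr3, which encodes an inositol trisphosphate receptor that releases calcium, fell in all 6 conditions, with log2 differences of -1.15 in G60, -1.42 in G120, -1.03 in K60, -1.46 in K120, -2.54 in GK60 and -2.56 in GK120 (SE 0.20), with limma adjusted p between 1.8e-06 and 0.0049, and the call in K60 was kept without 2 of the 4 arrays. The other genes of this receptor, Itpr1 and Itpr2, are named after their values were seen. Itpr1 rose 1.52-fold in G60 (limma adjusted p = 0.032) and 2.08-fold in G120 (adjusted p = 0.00037), and Itpr2 rose 2.47-fold in G120 (adjusted p = 0.00017) and 1.48-fold in K120 (limma adjusted p = 0.042). K60 and G60 differed in Itpr3 by 0.13 (-0.31 to 0.57) and K120 and G120 by -0.05. Prkca, a protein kinase C gene, fell in 5 conditions, with log2 differences from -1.39 to -0.95, and its difference in G60 was -0.55 (adjusted p = 0.077 in limma). Plcb4, a phospholipase C gene, fell by 1.39 in K120 (adjusted p = 7.5e-05) and by smaller amounts in G120 and K60, where the calls were lost without any one array.

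The 14 genes that fibroblasts are known to raise in answer to endothelin 1 were all above background in at least 1 group. In G60 3 fell and none rose, in G120 3 fell and 2 rose, in K60 5 fell and none rose, in K120 7 fell and 1 rose, in GK60 5 fell, and in GK120 6 fell, with none rising in the mixtures. Tagln, an actin-binding protein of contractile cells, fell in the 4 groups with K, with log2 differences of -2.15 in K60, -2.98 in K120, -1.01 in GK60 and -1.42 in GK120 (SE 0.21, limma adjusted p between 4.5e-07 and 0.0041), and differed by -0.16 and 0.10 in G60 and G120. K minus G was -1.99 for Tagln at 60 µM and -3.09 at 120 µM (limma adjusted p = 6.7e-05 and 9.9e-07). Of 6 smooth muscle and pericyte markers, Myh11, Des and Rgs5 were at or below the negative control median on all 16 arrays, while Cnn1, a contractile protein gene, was above it on 11, Mcam on 15 and Notch3 on 5. The log2 of their summed signals was 10.0 to 10.2 with 0.05% DMSO and 9.79 to 10.3 with 0.1% DMSO. It was 9.05 to 9.21 in G60, 9.45 to 9.75 in G120, 8.82 to 9.02 in K60 and 8.41 to 8.80 in K120. In the mixtures it was 9.01 to 9.52 in GK60 and 8.80 to 8.96 in GK120. The part of these markers in the Tagln values was not tested. Ptgs2, the inducible cyclooxygenase, fell in the 4 groups with K, with log2 differences from -2.27 to -1.83, and its differences in G60 and G120 were -1.37 (adjusted p = 0.077) and 0.32 (adjusted p = 0.73 in limma). The calls of Ptgs2 in K60 and GK60 and of Ccn2 in G60 and K120 were kept without 2 of the 4 arrays each, and that of Ccn2 in K60 was lost without any one array. Ccn2, a matrix-associated growth factor listed as Ctgf on the array, fell in all conditions except G120, with log2 differences from -2.20 to -1.25, and its difference in G120 was -1.06 (adjusted p = 0.075 in limma). Fos, an immediate early transcription factor, rose by 1.90 in G120 (limma adjusted p = 0.00016) and passed the threshold in no other condition.

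Of 16 regulators of Edn1 transcription, 5 fell in G60, 3 in G120, 4 in K60, 4 in K120, 2 in GK60 and 3 in GK120, and 3 rose in G120 and 1 in each mixture. Klf2, a factor that represses Edn1 in endothelial cells, fell in all 6 conditions, with log2 differences of -0.70 in G60, -1.98 in G120, -2.33 in K60 and -2.49 in GK60 (SE 0.17), and was at least 5.89-fold lower in K120 and at least 4.85-fold lower in GK120. The call in G60 (limma adjusted p = 0.021) was lost without any one of the 4 arrays, and the other 5 were kept. Junb, like Fos a subunit of the AP-1 factor, rose by 1.95 in G120 (limma adjusted p = 0.00011), with 0.23 in G60 and between -0.17 and 0.52 in the groups with K. Pparg, a nuclear receptor, fell by 0.83 in G60 (adjusted p = 0.0067) and fell by 1.85 in G120 (adjusted p = 4.5e-06 in limma), and differed by -0.37 to 0.09 in the groups with K.

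The 21 genes of other vasoactive peptide systems served for comparison, and 11 were at or below the negative control median in all groups. None passed the threshold in G60, 4 fell and 1 rose in G120, and 3 or 4 fell and none rose in each of the other conditions. Among those that fell, Ramp2 in G120 and Ren1 in K60 had both groups at or below the negative controls. Adm, which encodes the vasodilator adrenomedullin, fell by 0.99 in G120 (limma adjusted p = 0.00025) and fell by 0.77 in K120 (adjusted p = 0.0017), and its calls in K60 and GK60 were lost without any one array. Avpr1a, a vasopressin receptor, fell by 1.41 in G120 (adjusted p = 3.5e-05 in limma), had log2 differences of -0.75 and -0.64 in GK60 and GK120, which also passed the threshold, and differed by 0.14 and 0.45 in K60 and K120. K lay above G in Avpr1a by 0.62 at 60 µM and 1.86 at 120 µM (limma adjusted p = 0.029 and 7.3e-06), and the call at 60 µM was lost without any one array. Calcrl and Ramp1, which together form a receptor for calcitonin gene-related peptide, fell in both mixtures, and Calcrl also fell in K60 (limma adjusted p = 0.016) and K120 (adjusted p = 0.00029), with the treated groups at or below the negative controls. Calcrl was thus at least 1.44-fold lower in K60, 1.42-fold in K120, 1.77-fold in GK60 and 1.67-fold in GK120. Its call in K120 was kept without each of the 4 arrays in turn, those in the mixtures were kept without 2 of the 4, and that in K60 was lost without any one of them. The call in GK60 was also lost against 0.05% DMSO.

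**Figure D4:**
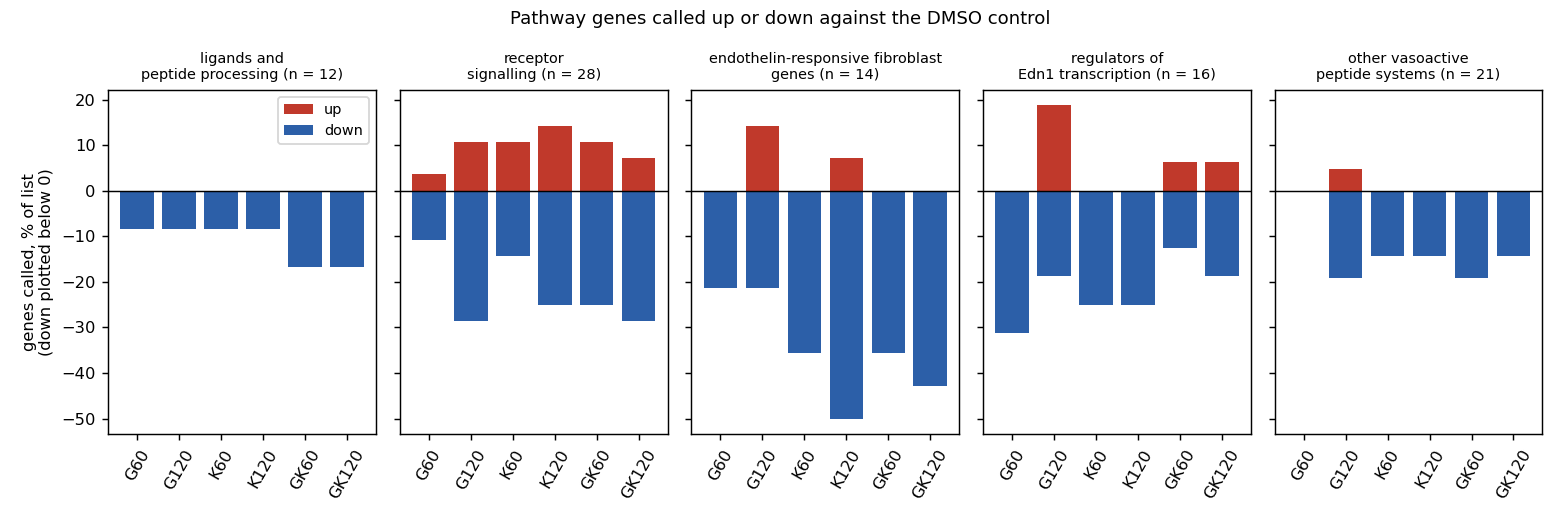
Share of each of the 5 gene lists (vertical axis, percent of the list, genes that fell plotted below 0) called by limma at an adjusted p under 0.05 in the 6 conditions (horizontal axis) against their DMSO control. Endothelin-responsive fibroblast genes show 7 of 14 lower in K120, 6 of 14 in GK120, 5 of 14 in K60 and GK60, and 3 of 14 in G60 and G120. Higher were 2 of 14 in G120 and 1 of 14 in K120. Part of the counts of this list became smaller with single arrays left out. Of all transcript clusters, 4.4% (K60) to 9.48% (GK120) were called lower and 3.84% (G60) to 10.1% (GK120) higher.

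K and G were also compared directly over the 90 genes. At 60 µM 8 genes were higher and 9 lower with K, and at 120 µM 7 were higher and 18 lower, with the background of 4.78% and 3.39%, and 5.21% and 4.57%, of all transcript clusters. Of 14 endothelin-responsive genes, 2 were higher and 3 lower with K at 60 µM, and 2 were higher and 6 lower at 120 µM.

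The transcript clusters whose means over the 8 groups were most like those of each member were sought among 10918 with a mean signal above the negative control median, by Pearson's r over 8 group means, given as a description of arrays that share their normalization. For Ednrb these were Clmp (r = 0.987), an adhesion molecule gene, Slc1a5 (0.986), a glutamine transporter gene, and Rgs2 (0.985). Clmp had its mean log2 signal from 10.8 in G120 to 12.5 in K60 and Slc1a5 from 8.82 in G120 to 10.7 in K60, so that both had their extremes in the same groups as Ednrb over a narrower range. For Ednra they were Oaf (0.991), Hist2h3b (0.987), a histone gene, and Cetn3 (0.987), a centrosome gene, all lowest in G120 and highest in a control. Oaf ran from 11.0 with 0.05% DMSO to 9.03 in G120. For Edn1 they were Capg (0.991), an actin-capping protein gene, Cryab (0.989), a small heat shock protein gene, and Slc41a3 (0.987), and Capg ran from 12.0 with 0.05% DMSO to 10.4 in GK120. For Ece1 they were Eme2 (0.978), 1810043H04Rik (0.970) and Rnf41 (0.955), each highest in G120 and lowest with 0.1% DMSO. Over the 16 single arrays, r was 0.947 to 0.969 for the genes like Ednrb and 0.744 to 0.843 for those like Ece1, whose range was narrowest. Among the members themselves, r over the 8 group means was 0.53 for Ednra and Ednrb, -0.51 for Edn1 and Ednrb and -0.74 for Ednrb and Ece1. For the remaining pairs it was -0.61 for Ednra and Ece1, 0.34 for Edn1 and Ednra and 0.10 for Edn1 and Ece1.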

How the data were processed

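Total RNA of fibroblast cultures was hybridised to 16 Clariom S mouse arrays. Per the labels and methods, the authors used Affymetrix Expression Console and Transcriptome Analysis Console. They deposited log2 signals, which RMA had background-corrected, quantile-normalized and summarized per probe set (sst-rma in the column names). RMA compresses differences near background, so folds of dim probe sets are understated. The genome build, like the versions, was not given in the sources used here. Deposited tables differed by at most 5e-05. Each array holds 28846 rows, of which 6640 are controls and 22206 annotated transcript clusters.

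Groups were compared in R 4.3.3 by limma 3.58.1. A single fit over all 16 arrays held 1 mean for each of the 8 groups and had 8 residual and 5.81 prior degrees of freedom. The Benjamini-Hochberg adjustment ran over all 22206 transcript clusters. The fit was tested on simulated data. Where neither array of a group exceeded the negative control median, its fold is given as a bound, computed with each such signal raised to that median. Precision is limited by the number of arrays.

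The members and lists were chosen with earlier results of these data known, and the lists were written from general knowledge of the system. Up to 4 genes per list with the widest difference among those called in at least 1 condition, and the 3 transcript clusters most like each member, were named. The transcript cluster with the highest mean stood for a symbol with several. Alternatives were the other DMSO control, repeated quantile normalization, a filter on dim clusters, eBayes with trend and robust settings, a replicate block, and each array left out. The study's methods state 3 replicates, of which 2 per group were analysed here. The labels give 0.05% DMSO for treated cultures, while the methods give 0.1% DMSO for the mixtures. Promoter sequences are those of RefSeq for GRCm38.p6.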

Additional observations from a re-analysis of the deposited data

Results flagged for a closer look

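Ednrb at 60 and 120 µM and Ece1 at 120 µM are listed here because at that concentration both G arrays lay on one side of both 0.05% DMSO arrays and both K arrays on the opposite side. Ednrb differed from 0.05% DMSO by -2.30 in G60 and 1.42 in K60, and by -3.32 in G120, a group below the negative control median, and 0.51 in K120. Ece1 differed by 0.60 in G120 and -0.29 in K120. The intervals in K120 included 0 for both genes, at -0.04 to 1.07 for Ednrb and -0.62 to 0.04 for Ece1. Against 0.1% DMSO, Ece1 in K120 differed by -0.0604. These genes were chosen with these signals known, and the difference between the flavonoids was not tested independently of that choice.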

How the results depend on the processing

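Of 168 alternative values of the 4 members' differences in the 6 conditions, 161 kept their sign and 7 did not, all of differences whose interval includes 0. With 0.1% DMSO as the control of every condition, Edn1 differed by 0.15 in G60, -0.026 in G120, -0.58 in K60 and -0.52 in K120, Ednra by -0.30 in K60 and -0.82 in K120, Ednrb by -2.38 in G60, and Ece1 by 0.25, 0.84, 0.15 and -0.0604 in G60, G120, K60 and K120, and 1 member was called in each of G60, K60 and K120. With 0.05% DMSO as the control of the mixtures, Edn1 differed by -1.03 in GK120, Ednra by -0.58 in GK60, and Ece1 by -0.074 in GK60 and 0.29 in GK120, and 2 members were called in GK60. With quantile normalization repeated, Edn1 differed by -0.94 in K60, by -0.86 between K60 and G60 and by -0.83 between GK120 and G120, Ece1 by 0.036 in GK60, -0.24 between K60 and G60 and -0.23 between GK60 and G60, and 1 member was called in G60. With the filter on dim clusters, which tests 10918 clusters and keeps 4 of 4 members and 62 of 90 pathway genes, 23 pathway genes were called in G60 instead of 13, and with trend and robust settings 22.

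With 1 array left out, the members called numbered 1 in G60, 1 in K60, 1 to 2 in K120, 0 to 1 in GK60 and 0 to 3 in GK120, and the pathway genes called 5 to 8 in G60, 15 to 19 in G120, 9 to 11 in K60, 16 to 20 in K120, 13 to 18 in GK60, 15 to 24 in GK120 and 6 to 9 between K60 and G60. Such a fit has fewer arrays, and the lone array of a group is assumed to vary like the other groups. The departure of GK120 from the sum of G60 and K60 ran from 0.024 to 0.31 for Edn1, 0.089 to 0.61 for Ednra, 0.18 to 0.67 for Ednrb and 0.38 to 0.80 for Ece1. Arrays with the same replicate number deviated with a correlation of -0.14 to 0.14 (median 0.01, 28 pairs of groups), so the numbers were not taken as pairs. With a replicate block, the same numbers of members were called (2, 3, 2, 2, 1 and 3 in G60, G120, K60, K120, GK60 and GK120). Over all lists, 12 pathway genes instead of 13 were called in G60 and 18 instead of 20 in K60. Among the counts of the separate lists, 2 of the endothelin-responsive fibroblast genes were classed as weaker with this block. For the other vasoactive peptide systems 1 count was classed as stronger, as was 1 for the regulators of Edn1 transcription. Among the single named pathway genes, 1 result was classed as weaker. Without GK60 replicate 2, Ednrb differed from the control by -0.15 in GK60. Signals near the negative control median limit Ednrb in the G groups.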
